A study of Mus musculus with 8 samples.

Results

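The IL-6 family of cytokines, their receptors and the SOCS inhibitors that limit their signal were followed through mouse lungs that expressed p52 in the airway epithelium and were given lipopolysaccharide (LPS, a component of bacterial cell walls). The set held 10 of the 18820 genes tested, Il6, Osm, Lif, Il6ra, Il6st, Osmr, Stat3, Socs1, Socs3 and Cish. It was taken by name, and each gene is given by its probe set with the highest mean over all arrays. In all, 11 probe sets carried 1 of these symbols alone, 2 of them for Socs3. Whole lung RNA of 3 mice was pooled per array, and 8 arrays (Affymetrix Mouse Gene 1.0 ST) covered 4 groups of 2 pools: CCSP-p52 with LPS, WT with LPS, CCSP-p52 on doxycycline (dox) only and WT on dox only.

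All mice were FVB, 8 to 12 weeks old, of both sexes in even numbers per group, and all drank 2 g/L dox with 2% sucrose for 1 week, so the WT mice were exposed to dox as well. CCSP-p52 mice carried a CCSP-tTS/(tet-O)7-FLAG-p52 transgene together with CCSP-rtTA. In these mice dox switches on FLAG-tagged p52, a subunit of the NF-kB transcription factors, in airway cells that use the Clara cell secretory protein promoter. The transgenic mice of the study derived from 2 founder lines, and the labels do not say which line a pool came from. WT mice were littermates without the transgenes. In the LPS groups LPS was given into the trachea and lungs were taken 48 hours later. Lungs of many cell types were read as a whole, so a change confined to airway epithelium would be diluted, and more cells of a type cannot be told apart from more RNA per cell.

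IL-6, oncostatin M and LIF are secreted proteins that signal through the shared chain gp130, which Il6st encodes, together with further receptor chains. The receptor complex activates JAK kinases, which phosphorylate STAT3. STAT3 then turns on target genes that include Socs3, and the SOCS3 protein binds gp130 and its kinases and shuts the signal off. SOCS1 restrains mainly interferon signals in the same way, and CIS, the product of Cish, is induced by STAT5 downstream of other cytokines. In the lung IL-6 is a hallmark of the response to bacterial products.

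Promoter sequence is shown for the 4 members whose upstream or start-site sequence held a match to the motifs searched, because NF-kB, C/EBP, STAT and interferon-regulated factors are the regulators these genes are known for. The sequences are RefSeq's for the mouse genome GRCm38.p6, read 5′ to 3′ on the strand of the gene, with matches in capitals and positions counted from the transcription start. Of the 10 members 9 had a promoter of 300 bases in that table, Osm being the exception.
Il6, chr5:30012964-30013113, plus strand, bases -150 to -1: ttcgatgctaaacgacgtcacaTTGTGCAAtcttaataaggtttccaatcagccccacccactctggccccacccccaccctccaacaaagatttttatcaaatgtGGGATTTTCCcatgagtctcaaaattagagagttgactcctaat
Socs1, chr16:10785537-10785636, minus strand, bases -100 to -1: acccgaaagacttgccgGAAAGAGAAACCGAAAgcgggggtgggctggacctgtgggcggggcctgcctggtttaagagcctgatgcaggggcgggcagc
Socs3, chr11:117969367-117969556, minus strand, bases -190 to -1: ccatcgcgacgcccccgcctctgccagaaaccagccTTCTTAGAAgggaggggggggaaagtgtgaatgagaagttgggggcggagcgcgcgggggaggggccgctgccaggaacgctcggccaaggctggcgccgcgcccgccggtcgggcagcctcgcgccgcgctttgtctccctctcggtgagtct
Cish, chr9:107296659-107296678, plus strand, bases 1 to 20: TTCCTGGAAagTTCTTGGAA

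The Il6 stretch held GGGATTTTCC at -44 to -35, a match to the NF-kB motif searched, these letters with the fourth and the fifth free, which 1.63% of 32851 promoters of this length hold on either strand. It also held TTGTGCAA at -128 to -121, which read on the other strand matches the C/EBP motif TTGCNNAA, present in 10.8% of promoters. The Socs1 stretch held 2 overlapping matches to the core of the interferon-stimulated response element, GAAA and GAAA with a pair of free letters between them, at -83 to -74 and -77 to -68 (3.44% of promoters). Socs3 carried TTCTTAGAA at -154 to -146, a match to the STAT motif TTCNNNGAA, which 8.3% of promoters hold, and Cish carried 2 such matches in its first 20 bases. The first of these in Cish, TTCCTGGAA, also fits the stricter form TTCCNGGAA (1.15% of promoters). A motif for CREB, TGACNTCA (8.83% of promoters), was in none of the 9 windows. It cannot match the shorter AP-1 site, which lacks the free letter and was not searched. The other 5 members with a window held none of the motifs. These matches describe the sequence and no binding was measured.

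The median log2 values of the arrays lay between 7.48 and 7.54, and the 2 pools of a group correlated over all tested probe sets at 0.981 in CCSP-p52 LPS lungs and 0.985 in WT LPS lungs, against 0.996 in both groups on dox only. Markers of lung epithelium were high on all arrays (mean log2 value of 12 genes 11.08 to 11.83). The second WT LPS pool stood apart in 11 genes of striated muscle and squamous epithelium, with a mean of 10.14 against 6.65 to 6.94 on the other 7 arrays. Nfkb2, which encodes p52 and its precursor, had log2 values of 11.28 and 10.53 in CCSP-p52 LPS lungs and 10.83 and 10.56 in WT LPS lungs, and of 10.20 and 10.33 in CCSP-p52 dox lungs against 9.51 and 9.58 in WT dox lungs. No source used here says whether its probes read the transgene. The log2 fold change (logFC) for p52 was 0.72 without LPS (standard error (SE) 0.23) and 0.21 with LPS, and neither passed adjustment.

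To determine how LPS changed the pathway, both genotypes were compared in a linear model with p52 and LPS as factors. LPS raised 7 of the 10 members and lowered 1 at an adjusted p below 0.05 in limma, where 13.5% of all genes rose and 20.8% fell. The median logFC of the members was 0.68, against 0.0046 over all genes. Il6 rose most of the members, 14.0-fold as measured, followed by Socs1 (4.48-fold) and Socs3 (3.79-fold). Osm, Osmr, Lif and Stat3 rose by smaller steps, Il6st fell, and Il6ra and Cish had logFCs of 0.16 and 0.03 that did not pass. For 6 members, Il6, Osm, Osmr, Stat3, Socs1 and Socs3, all 4 LPS pools lay above all 4 pools without LPS, as they did for 15.1% of genes. No member had all LPS pools below, as 21.8% of genes did.

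**Figure D1:**
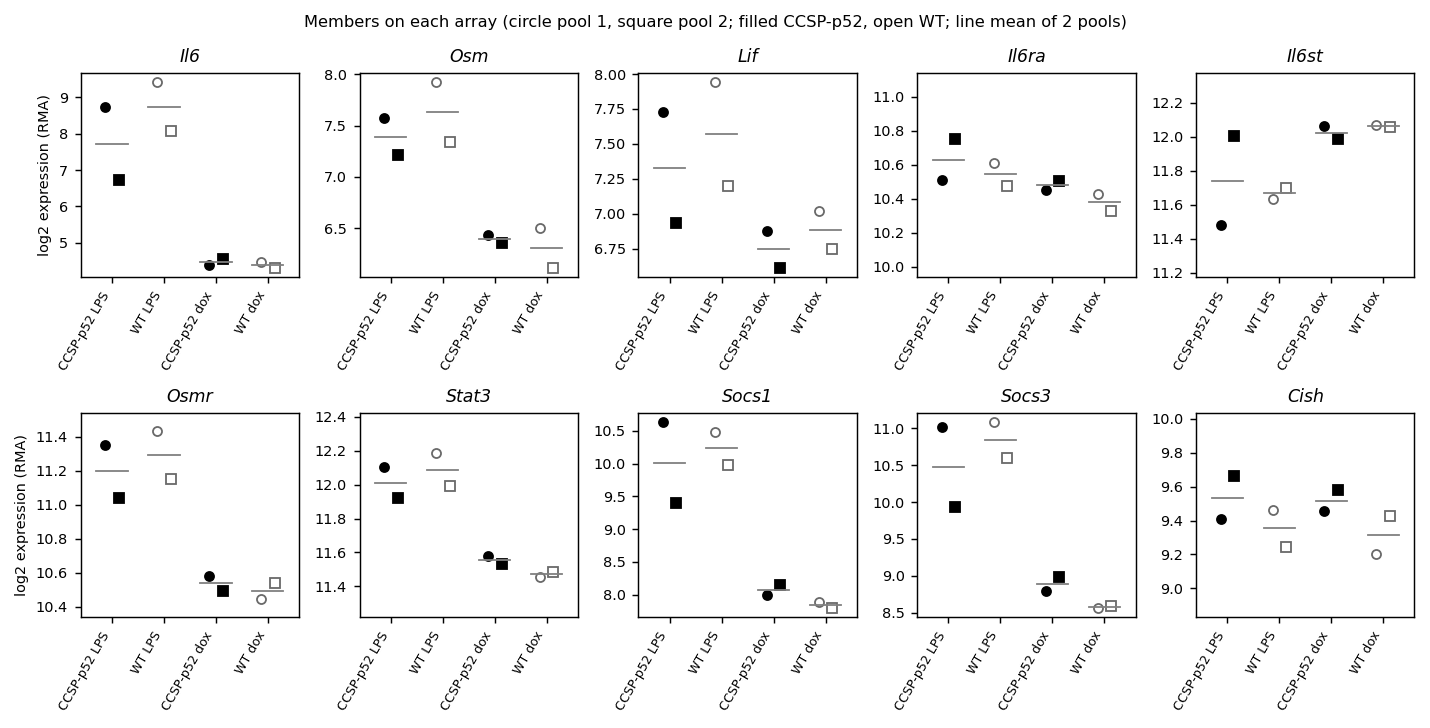
Log2 expression (RMA, vertical axis) of each of the 10 members on all 8 arrays by group, with circles for pool 1, squares for pool 2, filled symbols for CCSP-p52, open symbols for WT and a line at the mean of 2 pools. The vertical ranges differ between panels. In the panels of Il6, Socs1 and Socs3 all LPS pools sit above all pools without LPS, and the squares sit below the circles in both LPS groups.

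Among the ligands, Il6 had log2 values of 8.73 and 6.73 in the CCSP-p52 LPS pools and 9.41 and 8.09 in the WT LPS pools, against 4.38 and 4.54 in the CCSP-p52 dox pools and 4.48 and 4.32 in the WT dox pools. The 4 pools without LPS thus lay within a narrow low range, and the 4 with LPS were well above them and spread widely. The logFC for LPS was 3.81 (SE 0.47, adjusted p = 0.000794, limma). Without LPS the Il6 probe set ranked at the percentiles 6.8 to 8.2 of all probe sets on its array and was not shown to be above background, so the folds given for Il6 are measured values that may understate the change. Osm, the gene for oncostatin M, which leukocytes secrete, was at 7.57 and 7.21 in CCSP-p52 LPS lungs and 7.92 and 7.33 in WT LPS lungs, against 6.44 and 6.36 in CCSP-p52 dox lungs and 6.50 and 6.12 in WT dox lungs. Here too the LPS pools did not overlap with the others, with a logFC of 1.16 (SE 0.16, 2.23-fold, adjusted p = 0.0014). Osm and Lif are neighbouring genes on chromosome 11.

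Lif, the leukemia inhibitory factor, was at 7.73 and 6.93 in CCSP-p52 LPS lungs and 7.94 and 7.20 in WT LPS lungs, against 6.88 and 6.61 in CCSP-p52 dox lungs and 7.02 and 6.75 in WT dox lungs. The second CCSP-p52 LPS pool fell below the first WT dox pool, so the groups overlapped. The logFC was 0.63 (SE 0.21, 1.55-fold) at an adjusted p of 0.049 in limma, close to the threshold. It passed in 6 of 15 alternative settings. These include the fit without both second LPS pools, which was added after seeing the data and drops the pools where Lif was lower. Lif no longer passed without either WT dox pool (0.68 without pool 1 and 0.57 without pool 2), either CCSP-p52 dox pool (0.70 and 0.59), the first WT LPS pool (0.47) or the first CCSP-p52 LPS pool (0.49).

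The receptors were less uniform. Osmr, the specific chain of the oncostatin M receptor, was at 11.35 and 11.04 in CCSP-p52 LPS lungs and 11.43 and 11.15 in WT LPS lungs, against 10.58 and 10.49 in CCSP-p52 dox lungs and 10.45 and 10.54 in WT dox lungs. All LPS pools were higher than all others, by a logFC of 0.73 (SE 0.099, 1.66-fold, adjusted p = 0.00126, limma). Il6st encodes the gp130 chain that IL-6, oncostatin M and LIF share. It was at 11.48 and 12.00 in CCSP-p52 LPS lungs and 11.63 and 11.70 in WT LPS lungs. On dox only it was at 12.06 and 11.99 in CCSP-p52 lungs and 12.07 and 12.06 in WT lungs. Of the LPS pools 3 lay below every pool without LPS, while the second CCSP-p52 LPS pool was within their range.

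Il6st fell by 0.34 on the log2 scale (SE 0.11, adjusted p = 0.0457, limma). This call passed in 6 of 16 alternative settings, among them the fit without both second LPS pools that was added after seeing the data. Of the arrays left out in turn, it passed only without the second CCSP-p52 LPS pool (-0.46). Without any of the other arrays the logFC was -0.37 to -0.25 and did not pass. Il6ra, the chain that binds IL-6 itself, was at 10.51 and 10.75 in CCSP-p52 LPS lungs and 10.61 and 10.48 in WT LPS lungs, against 10.45 and 10.51 in CCSP-p52 dox lungs and 10.43 and 10.33 in WT dox lungs. The groups overlapped, and the logFC of 0.16 did not pass (SE 0.077, adjusted p = 0.157).

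Stat3, the transcription factor that transmits the gp130 signal, had values of 12.11 and 11.92 in CCSP-p52 LPS lungs and 12.18 and 11.99 in WT LPS lungs, against 11.58 and 11.53 in CCSP-p52 dox lungs and 11.46 and 11.49 in WT dox lungs. It had a small spread, and the LPS pools were all higher by a logFC of 0.54 (SE 0.080, 1.45-fold, adjusted p = 0.00186, limma). The arrays read the transcript, and phosphorylation of STAT3 was not measured.

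Of the inhibitors, Socs1 was at 10.63 and 9.40 in CCSP-p52 LPS lungs and 10.49 and 9.98 in WT LPS lungs, against 8.00 and 8.15 in CCSP-p52 dox lungs and 7.89 and 7.80 in WT dox lungs. No LPS pool came near the level without LPS, and the logFC was 2.16 (SE 0.25, adjusted p = 0.000684, limma). Socs3, whose upstream sequence with the STAT match is printed above, was at 11.02 and 9.94 in CCSP-p52 LPS lungs and 11.08 and 10.59 in WT LPS lungs, against 8.79 and 8.99 in CCSP-p52 dox lungs and 8.57 and 8.59 in WT dox lungs. Its logFC was 1.92 (SE 0.25, adjusted p = 0.00101). The second Socs3 probe set also separated LPS pools (7.53 to 8.30) from the others (6.62 to 7.09), with a smaller logFC of 1.09 (SE 0.17, adjusted p = 0.00235).

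Cish, the member with a pair of STAT matches at its start, was at 9.41 and 9.66 in CCSP-p52 LPS lungs and 9.46 and 9.25 in WT LPS lungs, against 9.46 and 9.58 in CCSP-p52 dox lungs and 9.20 and 9.43 in WT dox lungs. Its LPS logFC was 0.03 (SE 0.093, adjusted p = 0.854, limma) and the groups overlapped. The rises of Il6, Osm, Osmr, Stat3, Socs1 and Socs3 passed in every alternative setting in which they were tested, including each array left out.

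LPS was then compared to dox alone within each genotype in a model of 4 groups. The same 6 members, Il6, Osm, Osmr, Stat3, Socs1 and Socs3, passed upward in CCSP-p52 lungs and in WT lungs, and none passed downward. In all, 4.31% of genes rose and 5.03% fell in CCSP-p52 lungs, while 8.07% rose and 14% fell in WT lungs. Il6, with the same limit on its level without LPS, rose 9.63-fold in CCSP-p52 lungs (logFC 3.27, SE 0.65, adjusted p = 0.0301, limma) and 20.4-fold in WT lungs (logFC 4.35, SE 0.65, adjusted p = 0.00855). Socs1 rose 3.82-fold in CCSP-p52 lungs (adjusted p = 0.0267) and 5.24-fold in WT lungs (adjusted p = 0.00924). Socs3 rose 3.01-fold in CCSP-p52 lungs (adjusted p = 0.035) and 4.78-fold in WT lungs (adjusted p = 0.00822). Its second probe set rose 1.96-fold in CCSP-p52 lungs, which did not pass (adjusted p = 0.0595, limma), and 2.32-fold in WT lungs (adjusted p = 0.0203).

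Smaller rises were seen for Osm, with a logFC of 0.99 in CCSP-p52 lungs and 1.32 in WT lungs, for Osmr, with 0.66 in CCSP-p52 lungs and 0.80 in WT lungs, and for Stat3, with 0.46 in CCSP-p52 lungs and 0.62 in WT lungs. Lif did not pass in CCSP-p52 lungs (logFC 0.58, adjusted p = 0.283, limma) or in WT lungs (0.68, adjusted p = 0.167), although with the pool number as a replicate block it passed in WT lungs (adjusted p = 0.0296).

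These counts lay near the threshold and changed when 1 array was left out. Leaving out 1 dox pool moved the logFCs of the 6 members by at most 0.19. Leaving out 1 LPS pool of the genotype moved them by up to 0.998 in CCSP-p52 lungs and 0.66 in WT lungs. Without either WT dox pool no member passed in CCSP-p52 lungs, although the logFCs there are the same by construction and the adjusted p of the 6 members were 0.0628 to 0.104 in limma. Without either CCSP-p52 dox pool none passed in CCSP-p52 lungs (adjusted p of 0.158 to 0.226), with logFCs moved by at most 0.097, and without the first CCSP-p52 LPS pool 3 passed. In WT lungs none passed without either WT dox pool (adjusted p of 0.0542 to 0.0912), with logFCs moved by at most 0.19, and 2 passed without the first WT LPS pool. The count was 6 in WT lungs without the second WT LPS pool, which carries the muscle and squamous genes, and there the logFC of Il6 was 5.02.

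**Figure D2:**
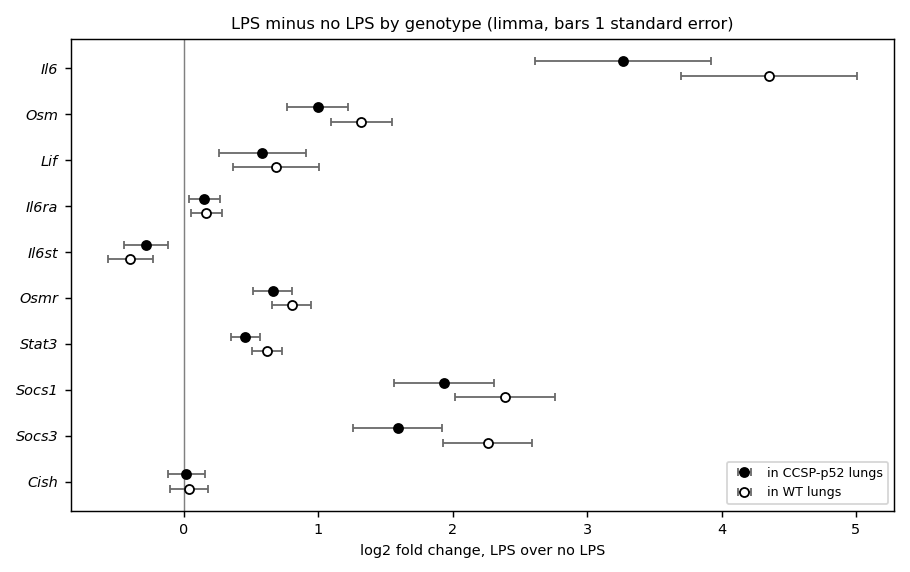
LogFC of LPS over no LPS (horizontal axis, log2 scale) for each member in CCSP-p52 lungs (filled) and WT lungs (open), with bars of 1 SE from limma, n = 2 pools per group. Il6 lies at 3.27 in CCSP-p52 lungs and 4.35 in WT lungs, and Cish lies near 0 in both.

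Next the effect of p52 was examined. Over all 8 arrays no member was at the cut-off used here (logFC of 0.41 or more in size, the size the study used for higher genes, and an unadjusted p of at most 0.05), which 0.271% of genes reached. None passed adjustment in limma (0.00531% of genes did) and none had an unadjusted p below 0.05 (2.31% of genes). The p52 logFCs of the members lay between -0.48 for Il6 and 0.19 for Cish, with a median of -0.011. For Cish the 95% interval of the p52 logFC was -0.02 to 0.41.

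Without LPS, both CCSP-p52 pools were above both WT pools for 5 of the 10 members, Il6ra, Stat3, Socs1, Socs3 and Cish, an arrangement that 16.5% of genes showed, and for no member were both below (16.2% of genes). The differences were small. Socs3 had the highest p52 logFC of the members, 0.31 (SE 0.33, 95% interval -0.48 to 1.10), followed by Socs1 (0.23) and Cish (0.20). At the second Socs3 probe set the groups overlapped, with a logFC of 0.22. No member was at the cut-off, where 0.733% of genes were, none passed adjustment in limma (adjusted p = 1 for each, and 0% of genes passed) and none had an unadjusted p below 0.05 (1.73% of genes). With 2 pools per group the data leave room for changes in either direction, as the interval for Socs3 shows.

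With LPS, the CCSP-p52 and WT pools overlapped for all 10 members, whereas the CCSP-p52 pools were both above the WT pools in 15.3% of genes and both below in 16%. Il6 had the most negative p52 logFC of the members, -1.02 (SE 0.65, 95% interval -2.57 to 0.53, adjusted p = 0.758, limma). It was followed by Socs3 at -0.36 (adjusted p = 0.83), Lif at -0.24, Osm at -0.23 and Socs1 at -0.22. The second Socs3 probe set had a p52 logFC of only -0.02. Again no member was at the cut-off, which 2.06% of genes reached, and none had an unadjusted p below 0.05 (6.87% of genes). Set against the WT LPS pool of the same number, 6 members were lower in CCSP-p52 lungs in both pairs, as were 28.2% of genes. These were Il6, Osm, Lif, Osmr, Stat3 and Socs3, and no member was higher in both (26.5% of genes). At the second Socs3 probe set CCSP-p52 was higher in pair 1 (8.30 against 8.08). The labels do not say that same-numbered pools belong together. All members were read on the same arrays, so their signs are not separate observations. For Il6 the differences were -0.68 in pair 1 and -1.36 in pair 2, and for Stat3 they were -0.08 and -0.07. With the pool number as a replicate block no member passed. The comparisons with and without LPS share no arrays, while the LPS effects within a genotype share their LPS arrays with the p52 effect under LPS.

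These values turned on which LPS pool was used. Without the first CCSP-p52 LPS pool 3 members were lower at the cut-off, Il6 at -2.02, Socs3 at -0.90 and Socs1 at -0.84, with adjusted p of 0.0804, 0.0758 and 0.0862 in limma. Without the second, Il6 was at -0.02, Socs3 at 0.18 and Socs1 at 0.39. Without both second LPS pools Il6 was at -0.68. That fit sets a single LPS pool of each genotype against the other and holds no spread between LPS pools. The median over the members was 0.044 without the first WT LPS pool and -0.36 without the second.

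**Figure D3:**
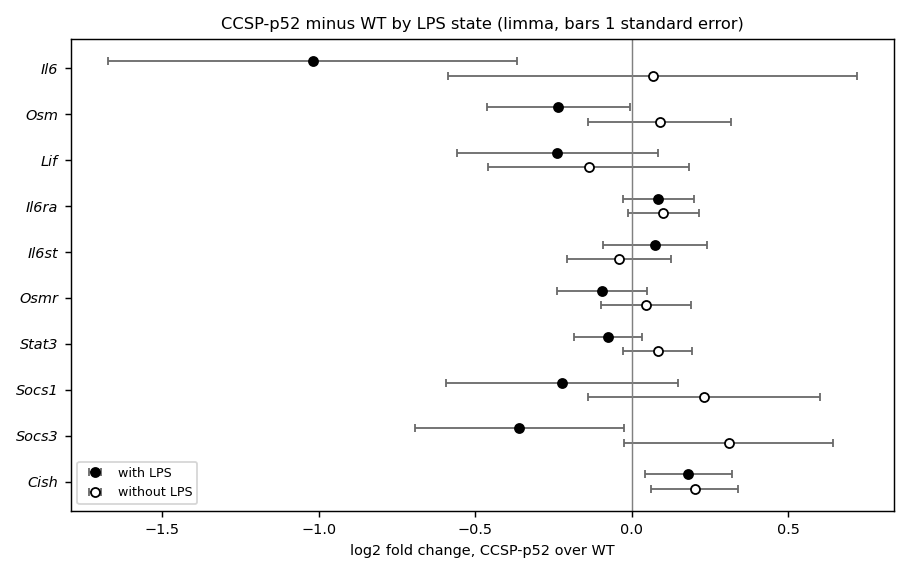
LogFC of CCSP-p52 over WT (horizontal axis, log2 scale) for each member with LPS (filled) and without LPS (open), with bars of 1 SE from limma, n = 2 pools per group. The Il6 value with LPS, -1.02, is the farthest from 0 and its bar is among the widest.

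The difference between the p52 effects with and without LPS, which is also the difference between the LPS effects of the genotypes, was tested as an interaction. It passed for no gene tested (5.02% of genes had an unadjusted p below 0.05) and no member had an unadjusted p below 0.05. The interaction logFC was below 0 for 9 of the 10 members, Il6st being above at 0.11, with a median of -0.15 against 0.0062 over all genes. The share of all genes below 0 was not counted, and the members' signs rest on the same arrays. Without the first WT LPS pool the median was -0.015 and 5 members were above 0. The interaction logFC was -1.09 for Il6 (SE 0.92, adjusted p = 0.93, limma) and -0.67 for Socs3 (SE 0.47, adjusted p = 0.919). At the second Socs3 probe set it was -0.24. The larger LPS folds in WT lungs were therefore not shown to differ from those in CCSP-p52 lungs.

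Within each LPS group the first pool showed the stronger response of the pathway. For all 7 raised members pool 1 was above pool 2 in both genotypes, as it was for 79% of the genes that LPS raised and 35.9% of all genes. Set against the mean of its own genotype without LPS, Il6 was higher by 4.26 and 2.27 in CCSP-p52 LPS pools 1 and 2 and by 5.02 and 3.69 in WT LPS pools 1 and 2. For Socs1 these rises were 2.55 and 1.32 in the CCSP-p52 LPS pools and 2.64 and 2.14 in the WT LPS pools. Socs3 showed rises of 2.13 and 1.05 in the CCSP-p52 LPS pools and 2.50 and 2.01 in the WT LPS pools.

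The second CCSP-p52 LPS pool had the smallest rise of the 4 LPS pools in each of the 7. The share of all genes with this order was not counted, so it is not shown to be particular to the members. Among other genes that LPS raised, Ebi3 and Jak2 also had their lowest LPS value in that pool, while Stat2 and Myc did not. In the second CCSP-p52 LPS pool Lif was only 0.19 above CCSP-p52 lungs on dox, against 0.98 in the first. Il6st there was at -0.02 relative to the same lungs, against -0.55 in the first. In the same pool the mean of 8 macrophage and monocyte markers was 9.38, against 9.80 to 10.07 in the other LPS pools, and that of 8 T, NK and B cell markers was 7.53, against 7.76 to 8.37. Its mean of 6 endothelial markers was 12.02, against 11.21 to 11.60, and of 12 epithelial markers 11.65, against 11.08 to 11.43. The mean of the neutrophil markers did not set this pool apart (10.39, against 10.35 to 10.94), but single markers differed. Csf3r was the lowest of the 4 LPS pools there (10.53, against 11.27 to 11.64), as were Cxcr2, Mmp9, Camp and, narrowly, S100a8. Only Retnlg was the highest there (11.19, against 10.40 to 11.18), and S100a9, Mmp8 and Ngp were neither. Among the macrophage and monocyte markers Mrc1 was the highest there (9.69, against 8.06 to 8.68). No source used here says what set the pools apart, and the part of these cells in the difference was not tested.

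**Figure D4:**
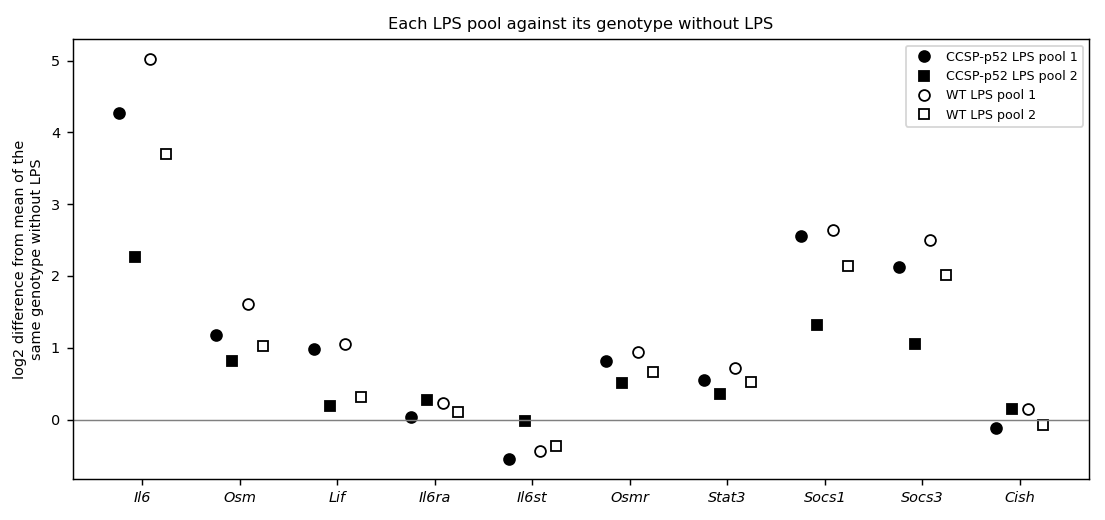
Rise of each LPS pool over the mean of the same genotype without LPS (vertical axis, log2 difference) for the 10 members, with circles for pool 1, squares for pool 2, filled symbols for CCSP-p52 and open symbols for WT. For Il6, Osm, Lif, Osmr, Stat3, Socs1 and Socs3 the filled square, the second CCSP-p52 LPS pool, is the lowest of the 4.

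The rest of the pathway was described by lists of other family ligands, receptors, kinases, inhibitors and target genes, to be read against the 13.5% of all genes that rose and the 20.8% that fell. Of 6 other ligands measured, LPS raised 3 and lowered 1 in the additive model. Ebi3, a subunit of IL-27 and IL-35, rose 4.94-fold (logFC 2.30, adjusted p = 0.00155, limma), with values of 10.69 and 9.04 in CCSP-p52 LPS lungs and 10.62 and 9.99 in WT LPS lungs, against 7.90 and 7.56 in CCSP-p52 dox lungs and 7.91 and 7.76 in WT dox lungs. Il11 rose 2.36-fold (adjusted p = 0.00829) and Il27, the partner of Ebi3 in IL-27, 1.65-fold (adjusted p = 0.0275), while Clcf1 fell by 0.38 on the log2 scale (adjusted p = 0.00754).

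Of 4 other receptors none rose and 2 fell. Lifr, the specific chain of the LIF receptor and the neighbour of Osmr on chromosome 15, was at 9.98 and 10.54 in CCSP-p52 LPS lungs and 9.82 and 9.95 in WT LPS lungs, against 11.27 and 11.21 in CCSP-p52 dox lungs and 11.31 and 11.30 in WT dox lungs. It fell by 1.20 on the log2 scale (adjusted p = 0.000664, limma), the opposite direction to Osmr. Cntfr fell by 0.62 (adjusted p = 0.0475).

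Among 8 JAK kinases and other STATs, 3 rose and none fell: Stat2, which acts with interferon signals, by a logFC of 1.17 (adjusted p = 0.00011, limma), Jak2 by 0.98 (adjusted p = 0.00265) and Stat5a by 0.33 (adjusted p = 0.0261). Of 14 other SOCS genes and negative regulators 3 rose and 4 fell, shares not far from those of all genes, with a median of -0.13. The 3 that rose were tyrosine phosphatases, Ptpn6 (SHP-1, logFC 1.62), Ptpn1 (1.05) and Ptpn2 (0.89). Socs2 (-0.43), Socs5 (-0.31), Pias3 (-0.33) and Pias2 (-0.27) fell.

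Target genes of STAT3 and the acute phase were mostly raised, 18 of 25, with 1 lowered and a median logFC of 0.81. The 4 with the smallest p were Timp1, an inhibitor of metalloproteinases (22.6-fold), Lcn2, which sequesters bacterial siderophores (12.6-fold), Il1rn, the IL-1 receptor antagonist (22.1-fold), and the transcription factor Myc (2.82-fold). Vegfa, the endothelial growth factor, was the one that fell, by 0.86 on the log2 scale (adjusted p = 0.00176, limma).

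**Figure D5:**
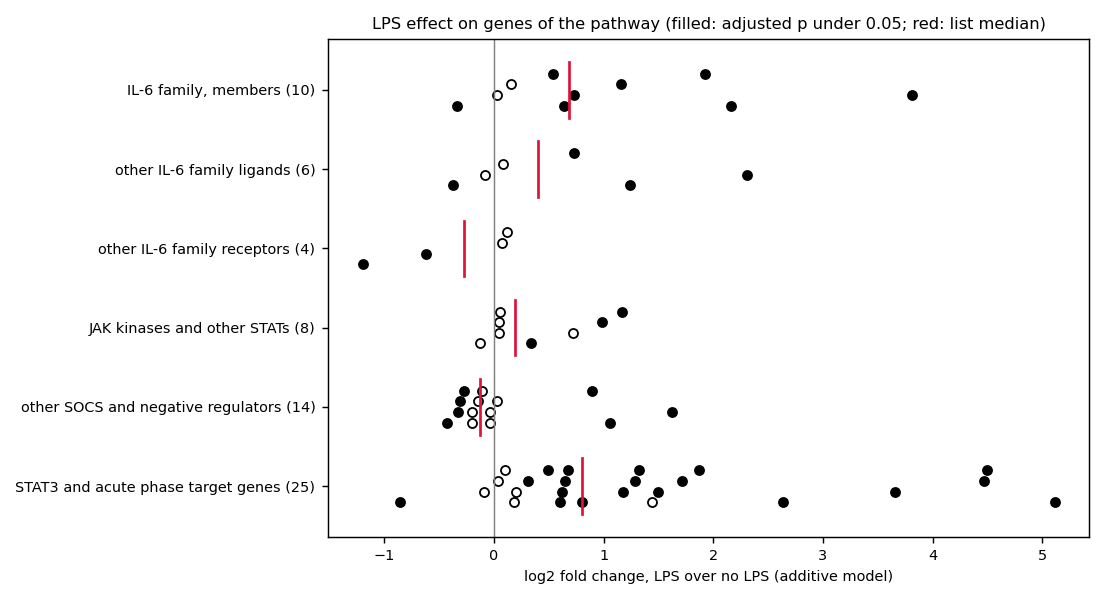
LogFC of LPS over no LPS in the additive model (horizontal axis, log2 scale) for every measured gene of 6 lists, with the number of genes in brackets, filled points for an adjusted p below 0.05 and a red line at the list's median. The members have a median of 0.68, the target genes 0.81 and the other receptors -0.28.

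For p52, 3 target genes reached the cut-off in these pathway lists. Saa3, an acute phase protein, was at 9.08 and 8.74 in CCSP-p52 dox lungs against 7.56 and 6.99 in WT dox lungs, a p52 logFC of 1.63 without LPS (SE 0.22, 3.10-fold), and of 0.78 over all arrays, also at the cut-off. With LPS it was at 13.35 and 12.98 in CCSP-p52 lungs against 13.25 and 13.24 in WT lungs (logFC -0.07). Neither value passed adjustment in limma (adjusted p = 1 without LPS and 0.939 with LPS), and nor did the interaction of -1.71 (adjusted p = 0.913). Lcn2 was at the cut-off without LPS (logFC 0.58) and Itih4 with LPS (-0.62), both without passing adjustment.

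Markers of other cells moved along with these genes. All 9 neutrophil markers measured rose with LPS, with a median logFC of 3.75, and their mean log2 level per array was 10.35 to 10.94 with LPS and 6.89 to 7.45 without. The largest of these rises were those of Mmp8 (39.2-fold) and S100a8 (25.2-fold), and the smallest logFC of the 9 was 0.49. Of 8 macrophage and monocyte markers 7 rose, Adgre1 8.26-fold, with a mean level of 9.38 to 10.07 with LPS and 7.93 to 8.31 without.

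Of 6 endothelial markers 5 fell, among them Kdr and Tek (logFC -1.42 each), with a mean level of 11.21 to 12.02 with LPS and 12.40 to 12.54 without. Of 12 epithelial markers 6 fell, and their mean level was 11.08 to 11.65 with LPS and 11.79 to 11.83 without. Lymphocyte markers were mixed (1 of 8 rose and 1 fell), 2 of 6 fibroblast markers fell, and none of the 11 muscle and squamous genes passed. For p52 the marker Nppa, of that last list, was at the cut-off over all arrays (logFC -0.75, adjusted p = 1, limma). The part of a changed cell composition in the rises of Il6, Osm and the SOCS genes and in the falls of Il6st and Lifr was not tested.

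The genes whose pattern over the 8 arrays was most like that of a member, by Pearson's r and as a description only, since all share the contrast of LPS and the same arrays, were Rasgrp4, Hmox1 and Noxo1 for Il6 (0.998 each). For Osm they were Tomm40 and Nubp1 (0.994 each) and Pim1 (0.992), and for Lif Ube2l3 (0.996), Ptpro (0.995) and Nans (0.994). Socs3 was most like Efhd2 (0.999), Sh3pxd2b and Ccne1 (0.998 each). Cish, which LPS did not move past the test, was most like Olfr108 (0.98), Spinkl (0.952) and Erdr1 (0.946).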

How the data were processed

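Whole lung RNA was measured on 8 Affymetrix Mouse Gene 1.0 ST arrays, each a pool of 3 mice, with 2 pools in each of 4 groups. The authors deposited log2 values from the Robust Multichip Average (oligo package), a method that subtracts background, brings the arrays to 1 distribution and combines the probes of a set, and the submitters' processing notes name limma 3.20.8. That step removes differences in total RNA, and the number of arrays limits the precision (median SE 0.0946 in the additive model and 0.129 in the 4-group model).

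Genes were named from the platform's probe table, and whether it is of the same array version was not settled. Of 35556 probe sets 21218 had 1 symbol and were tested, 1881 had several and 12457 none. Counts over the 18820 genes take the probe set of each gene with the highest mean. limma 3.58.1 in R 4.3.3 fitted an additive model of p52 and LPS and a model of 4 groups, both with empirical Bayes moderation. The study's methods name a linear model with both factors and do not say whether it was additive. The study lists a value of 0.72 for Nfkb2, which is the p52 logFC found here without LPS, while the additive model gave 0.47. The p52 values over all arrays are therefore not the study's own estimates. Calls were made at a Benjamini-Hochberg adjusted p below 0.05 over all tested probe sets, or, for p52, at a cut-off of a logFC of 0.41 in size, taken from the study and applied in both directions, with an unadjusted p of 0.05 added here. Pools are separate samples of a group, and the p-values measure the spread between these pools only. The fits were tested on simulated data.

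The members and the gene lists were chosen with earlier results of these data known, and the motifs after the members' sequences had been seen. The text names all members, Nfkb2, in each other list up to 4 genes by the smallest p for LPS and any at the cut-off for p52 without or with LPS, and the 3 genes most like each of Il6, Osm, Lif, Socs3 and Cish. Outside this rule, Vegfa, Nppa, Socs2, Pias2, Pias3 and Mrc1 were picked once their values had been seen. The neutrophil markers named for the second CCSP-p52 LPS pool were likewise named once their values had been seen. List genes without a probe set of 1 symbol are not analysed here. For each of 6 pairs of groups, the deviations of pools with the same number correlated (r of 0.14 to 0.347). On the strength of these values alone, pool numbers were treated as pairs in the replicate block and in the comparison of same-numbered LPS pools. The main fits did not use the pool number. Alternatives were all probe sets, a filter on dim probe sets (mean log2 below 7.53), the replicate block, array weights, median centring, trend and robust moderation, the mean over probe sets, effects averaged over the 4-group model and each array left out. A fit without the second pool of either LPS group was added after seeing the data.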

Additional observations from a re-analysis of the deposited data

How the results depend on the processing

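With 2 pools per group the counts of members called moved with single arrays. The number raised by LPS over both genotypes, 7 as reported, was 4 after the filter on dim probe sets, which removes Il6, Osm and Lif, and 6 to 7 when arrays were left out in turn. The number lowered by LPS, 1 as reported, was 0 with all probe sets tested, with median centring and with effects averaged over the 4-group model, and 0 to 1 with arrays left out. In CCSP-p52 lungs the number raised, 6 as reported, was 2 with all probe sets, 3 with array weights and 0 to 6 with arrays left out, and the number lowered was 1 without both second LPS pools and 0 to 1 with arrays left out. In WT lungs the number raised was 0 to 6 with arrays left out, and the number lowered was 1 with array weights, 1 without both second LPS pools and 0 to 1 with arrays left out. The number lower in CCSP-p52 lungs with LPS at the cut-off was 1 without both second LPS pools and 0 to 3 with arrays left out. The cause of these changes was not tested.

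Signs of small p52 values turned. With array weights the p52 effect over all arrays was 0.048 for Osm, -0.020 for Il6st, 0.060 for Osmr and 0.16 for Socs3, and with the mean over probe sets Socs3 was at 0.038. Without both second LPS pools it was -0.079 for Il6st, 0.0030 for Osmr and 0.19 for Socs3, the p52 effect with LPS was -0.10 for Il6ra, -0.15 for Il6st, 0.14 for Socs1 and -0.053 for Cish, the LPS effect in CCSP-p52 lungs was -0.11 for Cish, and the interaction was -0.11 for Il6st.

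When single arrays were left out, the LPS effect on Cish ranged over -0.022 to 0.080 in both genotypes, -0.11 to 0.14 in CCSP-p52 lungs and -0.074 to 0.15 in WT lungs. The p52 effect over all arrays ranged over -0.77 to 0.031 for Il6, -0.18 to 0.077 for Osm, -0.10 to 0.11 for Il6st, -0.073 to 0.051 for Osmr, -0.020 to 0.059 for Stat3, -0.20 to 0.30 for Socs1 and -0.17 to 0.26 for Socs3. Without LPS it ranged over -0.014 to 0.15 for Il6, -0.10 to 0.28 for Osm, -0.27 to 0.0012 for Lif and -9.73e-05 to 0.090 for Osmr. With LPS it ranged over -0.53 to 0.058 for Osm, -0.63 to 0.16 for Lif, -0.035 to 0.21 for Il6ra, -0.19 to 0.34 for Il6st, -0.25 to 0.061 for Osmr, -0.17 to 0.021 for Stat3, -0.84 to 0.39 for Socs1 and -0.90 to 0.18 for Socs3. The interaction ranged over -0.50 to 0.29 for Lif, -0.14 to 0.11 for Il6ra, -0.15 to 0.38 for Il6st, -0.29 to 0.016 for Osmr, -1.07 to 0.16 for Socs1 and -0.15 to 0.11 for Cish.

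With the replicate block the number of members raised by LPS was 7 over both genotypes and 7 in WT lungs, where Lif also passed (0.68, adjusted p = 0.0296, limma), and the block changed no other call among the members. Leaving out an array of a group of 2 assumes that the lone pool varies like the other groups. Such a fit holds no spread between the pools of that group, so its errors can be wider or narrower than those of the main fit. For the p52 effect on Il6 with LPS, the SE fell without either CCSP-p52 LPS pool and rose without either WT LPS pool. A smaller error in such a fit is therefore not a sign of greater certainty. Background correction and summarization were not varied, since scanner files were not used.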
